A study of Mus musculus with 18 samples.

Results

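Retnlg, Mmp8, Mmp9, Cxcr2 and Ly6g are genes that mouse neutrophils switch on late in their maturation, and they are described here across 4 groups of blood-forming cells from a mouse model of myelodysplasia and leukemia. They were chosen by name, by matching their symbols in the deposited expression table, and are 5 of its 53946 genes. All 5 had enough reads to be tested, among 16233 genes tested. In the files they are ENSMUSG00000022651 (Retnlg), ENSMUSG00000005800 (Mmp8), ENSMUSG00000017737 (Mmp9), ENSMUSG00000026180 (Cxcr2) and ENSMUSG00000022582 (Ly6g).

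The RNA series holds 12 libraries of C57BL/6 mice, 4 groups of 3. AML stands for C-Kit+ cells sorted from the spleen at the leukemia stage, in mice with the Nup98-HoxD13 (NHD13) transgene and Mx1-Cre-induced deletion of Setd2. The KO libraries came from bone marrow hematopoietic stem and progenitor cells (HSPCs) of NHD13/Setd2 KO mice, the NHD13 libraries from HSPCs of NHD13/Setd2 flox/flox mice, which carry the transgene and the floxed alleles, and the WT libraries from HSPCs of C57BL/6 mice. DNA methylation was measured in 1 whole-genome bisulfite library of each of these 4 groups, and the histone mark H3K36me3 in 1 ChIP-seq library each of C-Kit+ spleen cells labelled NHD13/Setd2 KO - AML and NHD13 - AML. AML and KO differ in tissue (spleen against bone marrow), sort and stage together, and these cannot be told apart. Mx1-Cre is driven by an interferon-inducible promoter and also acts outside blood-forming cells. No age is given in the labels. Nor do they say that replicates are separate animals, and p-values therefore measure the spread between these samples, which could be technical.

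As background, a neutrophil passes from promyelocyte to myelocyte, metamyelocyte, band and segmented cell, and makes its granules in that order. Primary granules hold myeloperoxidase and serine proteases, secondary granules hold lactoferrin and Mmp8 (neutrophil collagenase, which cleaves fibrillar collagen), and the last, gelatinase granules hold Mmp9 (gelatinase B, which degrades denatured collagen). Cxcr2 is the receptor for CXC chemokines such as Cxcl1 and Cxcl2 and draws mature neutrophils out of the bone marrow. Ly6g is the membrane-anchored surface protein by which mature neutrophils are usually recognised in mice. Retnlg encodes a small secreted protein of the resistin family that is abundant in the granulocytes of mice.

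The sequences around the annotated starts of Retnlg, Mmp8, Cxcr2 and Ly6g (300 bases, most of them before the start, from RefSeq, GRCm38.p6, the same build as mm10, plus strand) are shown because these genes moved together in 2 of the 3 stepwise comparisons below and because regions of changed methylation reached the starts of Retnlg and Cxcr2. Capitals mark matches, on either strand, to a C/EBP motif (TTGCNNAA), a PU.1 motif (GAGGAA) or a TATA box (TATAAA).
Retnlg, chr16:48872358-48872657: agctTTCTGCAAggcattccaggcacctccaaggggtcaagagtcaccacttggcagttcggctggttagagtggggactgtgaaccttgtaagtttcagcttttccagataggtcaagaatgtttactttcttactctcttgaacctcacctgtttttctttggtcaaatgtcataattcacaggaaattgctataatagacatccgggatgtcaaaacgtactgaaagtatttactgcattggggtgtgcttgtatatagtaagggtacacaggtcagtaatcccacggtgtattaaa
Mmp8, chr9:7558179-7558478: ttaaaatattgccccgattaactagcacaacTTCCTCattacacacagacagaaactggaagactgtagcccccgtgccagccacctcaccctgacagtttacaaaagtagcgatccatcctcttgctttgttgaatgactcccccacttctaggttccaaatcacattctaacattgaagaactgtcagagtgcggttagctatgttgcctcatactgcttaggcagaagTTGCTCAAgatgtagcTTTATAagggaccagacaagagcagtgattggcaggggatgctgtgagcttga
Cxcr2, chr1:74153744-74154043: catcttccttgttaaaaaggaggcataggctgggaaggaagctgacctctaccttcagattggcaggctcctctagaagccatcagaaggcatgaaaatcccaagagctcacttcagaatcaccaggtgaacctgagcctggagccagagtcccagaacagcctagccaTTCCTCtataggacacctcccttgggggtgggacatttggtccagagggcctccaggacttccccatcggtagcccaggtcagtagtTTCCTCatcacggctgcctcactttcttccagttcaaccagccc
Ly6g, chr15:75155011-75155310: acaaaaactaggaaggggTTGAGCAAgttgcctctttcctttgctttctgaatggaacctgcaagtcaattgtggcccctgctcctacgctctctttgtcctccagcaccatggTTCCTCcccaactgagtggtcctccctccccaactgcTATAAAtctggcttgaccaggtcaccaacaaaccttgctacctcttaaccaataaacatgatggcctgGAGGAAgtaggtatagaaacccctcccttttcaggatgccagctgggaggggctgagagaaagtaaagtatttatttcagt

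The C/EBP letters occurred in the windows of Retnlg, Mmp8 and Ly6g, and in 10.8% of 27025 promoter windows of the same length. The PU.1 letters occurred in those of Mmp8, Cxcr2 and Ly6g and in 28.3% of all windows, and the TATA letters in those of Mmp8 and Ly6g and in 14.2% of all windows. In Mmp8 the TATA match lay on the minus strand and across the annotated start, at bases -3 to 2 counted from it. The TATA match of Ly6g lay at -99 to -94, and in Cxcr2 the second PU.1 match lay after the start. Neither an AP-1 motif (TGANTCA, 7.93% of all windows) nor an NF-kappaB motif (1.62%) was found in the 4 windows. No 2 of these matches overlapped. The windows held few CpG sites, 4 in Retnlg, 4 in Mmp8, 2 in Cxcr2 and 1 in Ly6g, against a median of 7 over all windows. These matches are descriptions of letters and not of bound sites.

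Libraries held between 18673704 and 28127686 gene counts. In WT, replicate 1 stood apart from the others (chi-square per degree of freedom 30.4 and 29.3 against them, and 4.01 between replicates 2 and 3). NHD13 libraries differed too, with 24.9 between replicates 2 and 3 and 13.1 between 1 and 2. AML replicates differed least, with values from 1.97 to 2.63. Setd2, counted over the whole gene, averaged 32.4 ± 2.9 CPM (counts scaled to a common library size) in the KO libraries and 33.5 ± 1.7 CPM in the NHD13 libraries (SD, n = 3 each), and the edgeR adjusted p of the difference was 0.685. Loss of single exons cannot be seen in these counts, and KO is used below for the libraries so labelled. In AML Setd2 averaged 183 ± 4.1 CPM. AML and KO libraries carried the Y-linked Eif2s3y (68.4 and 59.9 CPM on average) and next to no Xist, while NHD13 and WT libraries carried Xist (94.8 and 174 CPM) and next to no Eif2s3y; the sex of the mice and the Setd2 genotype cannot be told apart in KO against NHD13. By these markers sex also differs in KO against WT, AML against NHD13 and AML against WT. It cannot be told apart there from the other differences between the groups. Kit, the receptor by which the AML cells were sorted and which HSPCs carry, averaged 215 CPM in AML, 101 CPM in KO, 73.6 CPM in NHD13 and 100.5 CPM in WT. Cd34, another progenitor marker, averaged 12.6 CPM in NHD13, the lowest of the groups, against 388 CPM in WT.

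Levels are first given as FPKM (fragments scaled by gene length and library total), the unit in which genes can be compared with each other. Retnlg was the most abundant of the 5 genes in every library. Retnlg stood at 103, 97.9 and 106 FPKM in the AML libraries, at 119, 108 and 119.7 in KO, at 366, 361 and 360.4 in NHD13, and at 45.7, 47.1 and 42.0 in WT. All 3 NHD13 libraries thus lay far above the others, AML lay narrowly below KO, and no 2 groups overlapped.

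The collagenase gene Mmp8 stood at 62.5, 62.1 and 61.8 FPKM in AML, at 6.82, 8.53 and 7.65 in KO, at 23.5, 25.03 and 20.4 in NHD13, and at 4.37, 4.08 and 3.67 in WT. The gelatinase gene Mmp9 had the widest range of the 5, with 84.0, 83.7 and 84.8 FPKM in AML, 2.57, 3.88 and 3.65 in KO, 16.2, 14.2 and 18.8 in NHD13, and 1.15, 0.838 and 1.02 in WT. Both proteases were highest in AML and lowest in WT, with NHD13 above KO, and their groups did not overlap.

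Cxcr2, the chemokine receptor, stood at 15.5, 14.5 and 15.02 FPKM in AML, at 2.42, 2.65 and 2.80 in KO, at 6.84, 7.08 and 5.78 in NHD13, and at 1.81, 2.15 and 2.18 in WT. Ly6g, the surface marker, stood at 19.5, 20.03 and 22.1 FPKM in AML, at 3.48, 2.87 and 2.65 in KO, at 28.4, 31.2 and 30.5 in NHD13, and at 1.30, 1.25 and 2.21 in WT. Cxcr2 thus had the order of the proteases, and Ly6g was highest in NHD13 and second in AML. Ly6g rested on 27 to 46 counts per library in WT and on 57 to 76 in KO, so its low levels are the least precise, and it belongs to a cluster of near-identical Ly6 genes among which short reads can be split.

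**Figure D1:**
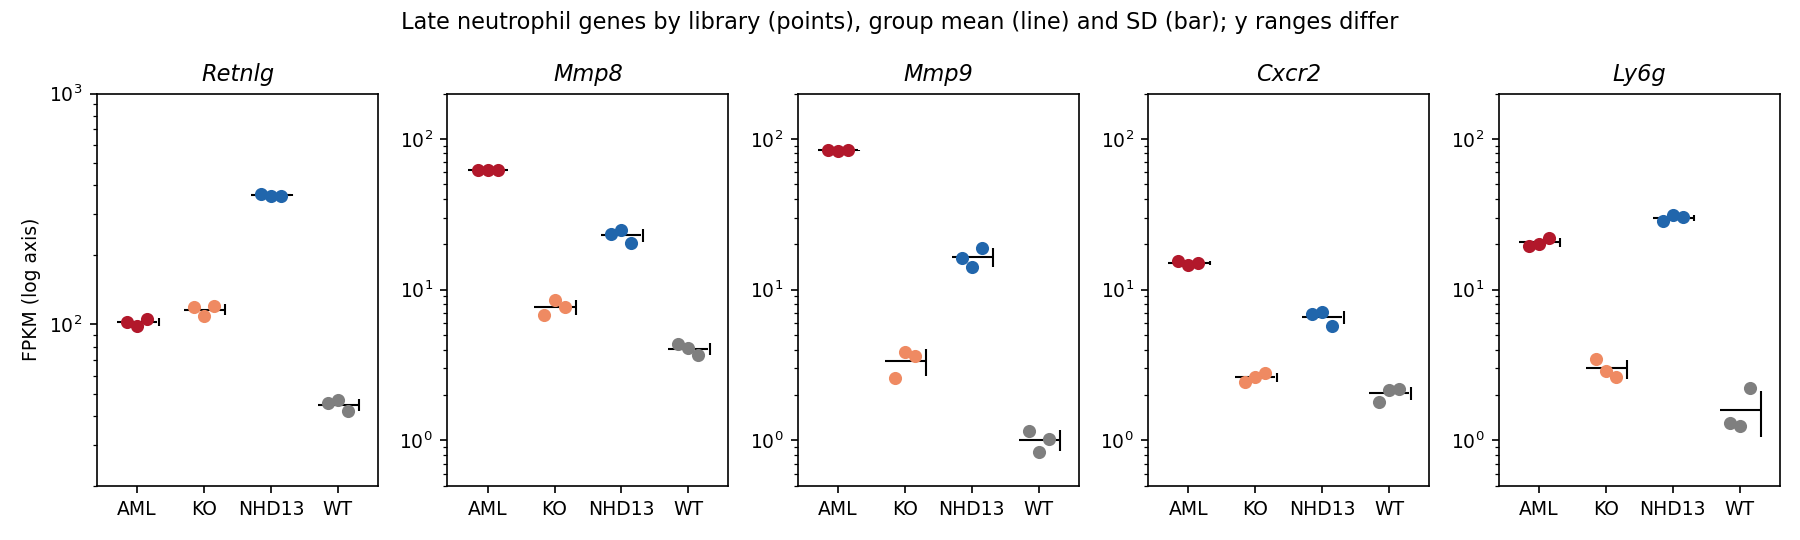
FPKM (log axis, y ranges differ between panels) of each gene in the 3 libraries of AML, KO, NHD13 and WT; points are libraries, the line is the group mean and the bar its SD. Retnlg and Ly6g are highest in NHD13 (362 and 30.05 FPKM on average), and Mmp8, Mmp9 and Cxcr2 are highest in AML (62.2, 84.1 and 15.02 FPKM).

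With the NHD13 transgene, all 5 genes were higher than in WT HSPCs. Ly6g rose 24.8-fold and Mmp9 21.3-fold, Retnlg 10.5-fold, Mmp8 7.41-fold and Cxcr2 4.19-fold. On the log2 scale of the edgeR quasi-likelihood test, Ly6g changed by 4.63 ± 0.16 (SE; adjusted p = 2.28e-14) and Cxcr2, the least changed, by 2.07 ± 0.11 (adjusted p = 1.86e-11). Of all tested genes, 25.3% rose and 28.7% fell, and each of the 5 changes lay above those of more than 97.1% of the tested genes. In CPM, Retnlg averaged 270.2 ± 4.4 CPM in NHD13 and 25.7 ± 1.6 CPM in WT (SD, n = 3 each). In FPKM, a higher NHD13 group with no overlap was found for 10.6% of tested genes and for all 5 of these. On that scale, which carries no composition correction, limma at a pseudocount of 1 called 1683 genes higher and 8305 lower, where edgeR called 4112 and 4652, with the 5 genes higher by both. Without WT replicate 1 all 5 calls held. In such bulk samples a higher share of cells of a type and more RNA per cell cannot be told apart.

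In the KO libraries all 5 genes were lower than in NHD13 libraries. Ly6g was 11.5-fold lower, Mmp9 5.50-fold, Retnlg 3.57-fold, Mmp8 3.40-fold and Cxcr2 2.84-fold. Ly6g fell by 3.52 ± 0.15 on the log2 scale (SE, edgeR adjusted p = 5.95e-13) to 3.04 ± 0.43 CPM in KO, against 34.7 ± 2.4 CPM in NHD13 (SD, n = 3 each). Cxcr2 fell by 1.51 ± 0.11 (adjusted p = 1.84e-09) to 8.62 ± 0.65 CPM in KO, against 24.6 ± 2.8 CPM in NHD13. Among all tested genes 20.3% fell and 20.6% rose, and the 5 changes lay among the lowest 4.65%. In FPKM, 14.4% of tested genes were lower in KO with no overlap, and limma called 1932 genes lower there, where edgeR called 3295.

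KO libraries still carried more of each transcript than WT. Mmp9 rose by 1.95 ± 0.16, Retnlg by 1.56 ± 0.07, Mmp8 by 1.12 ± 0.10, Ly6g by 1.11 ± 0.20 and Cxcr2 by 0.56 ± 0.12 (log2, SE). The edgeR adjusted p-values ran from 1.9e-12 for Retnlg to 0.0012 for Cxcr2, the smallest of the 30 changes. In FPKM, 9.69% of tested genes were higher in KO with no overlap. Among all tested genes 17.2% rose and 20% fell. This comparison shares its libraries with the NHD13 comparisons above.

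In the leukemic spleen cells 4 of the genes were far above KO. Mmp9 rose 18.6-fold (log2 4.22 ± 0.13 SE, edgeR adjusted p = 1.87e-13), with 240.9 ± 1.8 CPM in AML, against 12.8 ± 2.6 CPM in KO (SD, n = 3 each). Mmp8 rose 6.07-fold, Ly6g 5.17-fold and Cxcr2 4.29-fold. Retnlg went the other way, 1.51-fold lower in AML at 50.2 ± 1.4 CPM, against 75.8 ± 4.7 CPM in KO (log2 -0.59 ± 0.06, adjusted p = 6.78e-08). AML differed from KO in most of the transcriptome: 42.8% of tested genes rose and 39.5% fell, so a call alone sets a gene little apart. The rise of Mmp9 lay above the changes of 96.7% of tested genes, that of Mmp8 above 89.2%, Ly6g 87.2% and Cxcr2 84.3%. These ranks are less extreme than those in NHD13 against WT. In FPKM, 53.4% of tested genes were higher and 32.2% lower in AML with no overlap.

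The AML changes followed gene length, which the HSPC comparisons hardly did. Between AML and KO the median log2 fold change of all tested genes was -1.05 for genes up to 700 bases and 0.67 for genes over 4000 bases, and between KO and NHD13 these medians were 0.17 and 0.03. Retnlg is the shortest of the 5, at 608 bases, followed by Ly6g at 942, Mmp8 at 2425, Cxcr2 at 3048 and Mmp9 at 3539. With a correction for gene length, added after the data were seen, Retnlg reversed to 0.37 in AML against KO (adjusted p = 3.54e-05). The direction of Retnlg between AML and KO thus rests on this choice. The other 4 stayed higher in AML, at 2.93 for Mmp8, 4.17 for Mmp9, 2.21 for Cxcr2 and 3.24 for Ly6g.

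**Figure D2:**
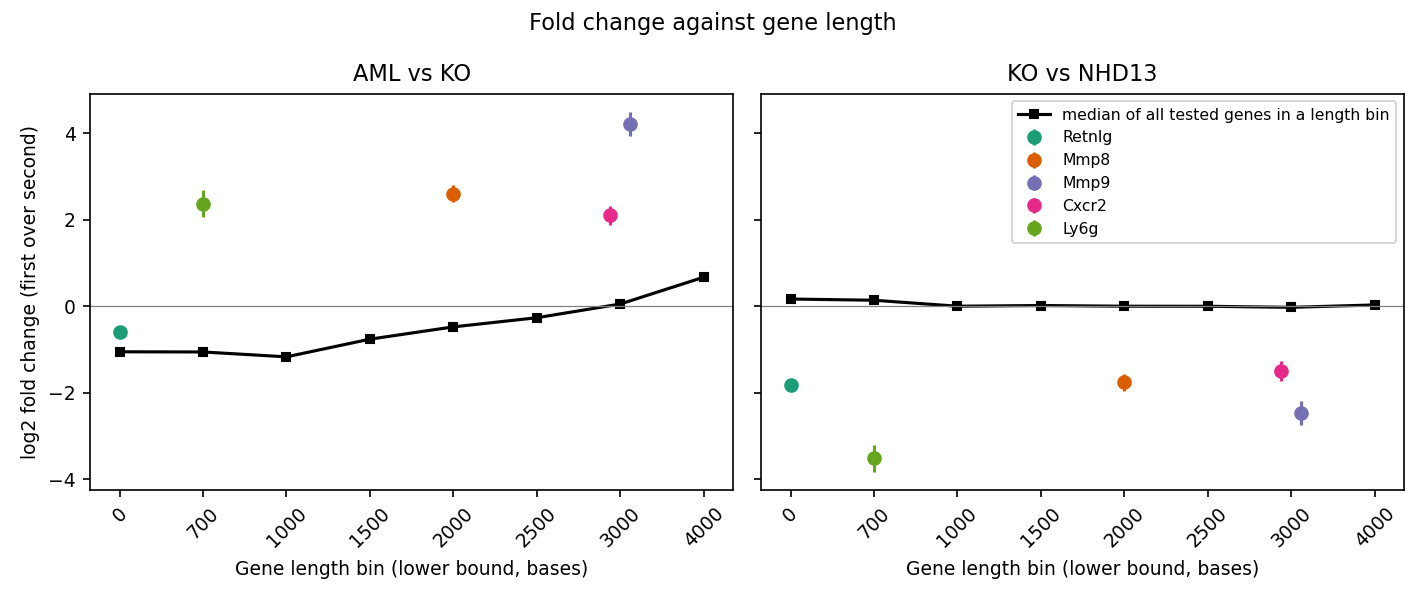
Median log2 fold change of all tested genes (black squares) in bins of gene length, labelled by their lower bound, with the 5 genes placed in their bins (points, 95% interval), for AML over KO and KO over NHD13. In AML over KO the median lies between -1.17 and -0.76 for genes under 2000 bases and reaches 0.67 in the longest bin, and Retnlg lies below zero but above the median of its bin; with the length correction it reverses to 0.37. In KO over NHD13 the medians lie between -0.03 and 0.17 and all 5 genes lie below them.

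AML against NHD13 split the 5 genes. Mmp9 rose by 1.76 ± 0.12, Mmp8 by 0.84 ± 0.09 and Cxcr2 by 0.59 ± 0.10 (log2, SE). Retnlg fell by 2.43 ± 0.06 and Ly6g by 1.15 ± 0.12, and the largest edgeR adjusted p of the 5 was 2.3e-05, for Cxcr2. Over all tested genes 43.3% rose and 39.1% fell, and 56.8% were higher and 27.9% lower in FPKM with no overlap. The changes of Mmp9, Mmp8 and Cxcr2 lay above those of 77.9%, 63.9% and 59.7% of tested genes, so the last 2 were near the middle. Those of Ly6g and Retnlg lay above 25.4% and 8.93%. Under the length correction Ly6g was at -0.41 (adjusted p = 0.00233) and Retnlg at -1.64, still lower in AML. Against WT all 5 rose in AML, from 0.97 ± 0.07 for Retnlg to 6.17 ± 0.15 for Mmp9, where 41.7% of tested genes rose, 43.0% fell and 46.8% were higher in FPKM with no overlap. With the length correction Retnlg stood at 1.89 there.

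**Figure D3:**
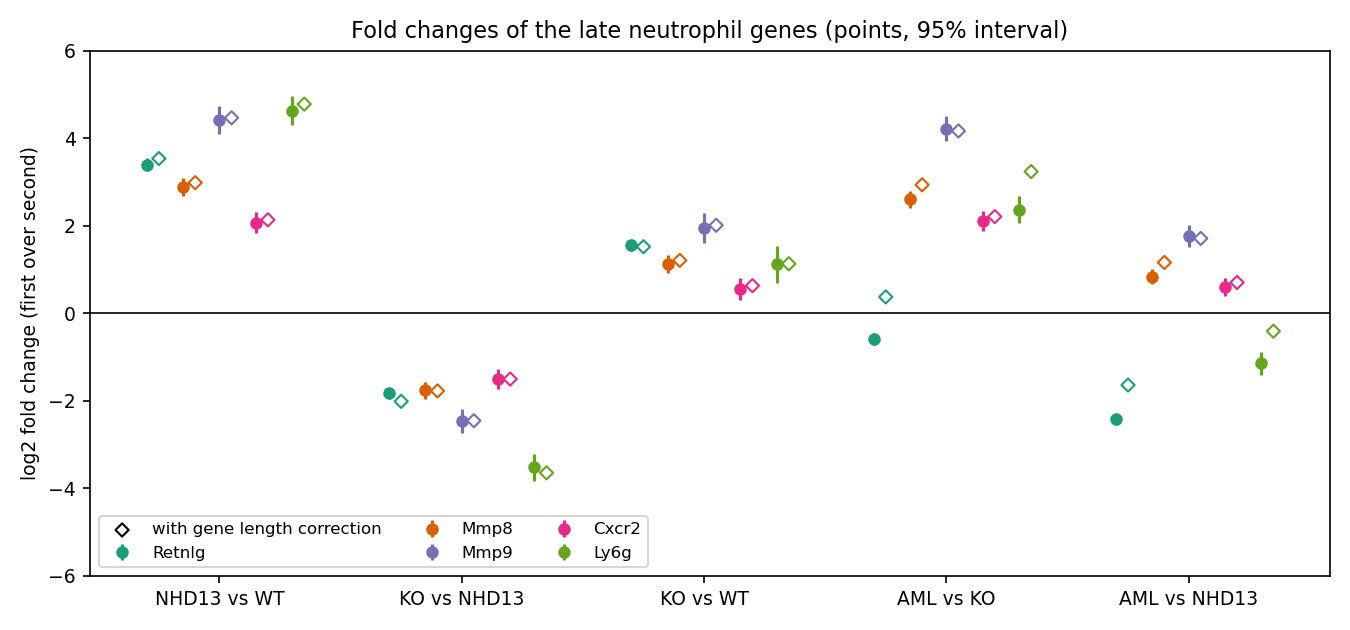
Log2 fold changes (first group over second) of the 5 genes in 5 comparisons, with 95% intervals; open diamonds are the values with a gene length correction. All 5 lie above zero in NHD13 over WT and below zero in KO over NHD13, and the correction moves Retnlg in AML over KO across zero, to 0.37, while the others keep their side.

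The proportions among the genes changed with the group. Retnlg exceeded Mmp9 1.21 ± 0.04-fold in AML, 35.7 ± 9.5-fold in KO, 22.4 ± 3.2-fold in NHD13 and 45.7 ± 9.2-fold in WT (ratio of FPKM, SD, n = 3 each). Mmp8 was below Mmp9 in AML, at a ratio of 0.739 ± 0.008, and above it in KO, NHD13 and WT, at 2.32 ± 0.29, 1.43 ± 0.34 and 4.09 ± 0.69. Mmp8 and Cxcr2 kept the steadiest proportion, at 4.14 ± 0.13 in AML, 2.92 ± 0.26 in KO, 3.50 ± 0.06 in NHD13 and 2.001 ± 0.377 in WT. Ratios that involve AML and genes of different length share the length trend described above.

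Over the 12 libraries, log2 CPM of Mmp8, Mmp9 and Cxcr2 ran almost in parallel, with Pearson r of 0.993 for Mmp8 with Mmp9, 0.991 for Mmp8 with Cxcr2 and 0.981 for Mmp9 with Cxcr2. Ly6g had r between 0.868 and 0.903 with these 3 and 0.781 with Retnlg, and Retnlg had r between 0.461 and 0.51 with the 3. These values describe 4 groups of 3 libraries and are not a test. Among 9148 genes with at least 10 CPM in their highest group, those most like Retnlg were Hsd11b1 (r = 0.993), which regenerates active glucocorticoid, Alas1 (r = 0.992), the first enzyme of heme synthesis outside the erythroid line, and F10 (r = 0.984), coagulation factor X. Like Retnlg they were highest in NHD13, and Hsd11b1 had 17.9 FPKM in AML, 18.8 in KO, 78.2 in NHD13 and 8.22 in WT. Those most like Mmp8 were Nhsl2, B4galt6 and the liver-type glycogen phosphorylase Pygl, those most like Mmp9 were Nhsl2, the endothelial lipase Lipg and B4galt6, and those most like Cxcr2 were Syne1, Abca13 and Tmem154, with r between 0.991 and 0.999. Among those most like Ly6g were Lnpk (r = 0.992) and the secondary granule protein Ngp (r = 0.991).

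Other genes of late neutrophils moved with the 5. In a list of further surface, signalling and cytosolic genes, 29 of 32 tested rose and 2 fell in NHD13 against WT, with a median log2 fold change of 2.73, against -0.04 over all tested genes. The integrin subunit Itgb2l rose by 5.97 ± 0.11 to 74.9 CPM in NHD13, against 1.19 CPM in WT (edgeR adjusted p = 2.82e-18), and the neutrophil surface protein Cd177 rose by 5.78 ± 0.11. Among those that fell was the lectin Clec4d, at -1.31 ± 0.09. In KO against NHD13, 29 of the 32 fell and 3 rose (among them Clec4e and Clec4d), with a median of -2.10, against 0.02 over all tested genes, and Cd177 fell by 4.65 ± 0.11. In AML against KO, 24 rose and 6 fell, with a median of 1.31 against 0.07. There Cd177 rose by 5.02 ± 0.11 and Slpi, a secreted protease inhibitor, fell by 2.44 ± 0.08. Between AML and NHD13 12 rose and 17 fell, with a median of -0.33 that turned to 0.14 on the FPKM scale.

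Secondary granule genes all rose in NHD13 against WT (10 of 10, median 5.61), the antimicrobial Camp by 7.40 ± 0.11 to 9854 CPM in NHD13, against 58.3 CPM in WT. All 10 fell in KO against NHD13 (median -3.45), Ngp by 5.18 ± 0.10, and 9 rose in AML against KO (median 1.998), lactoferrin (Ltf) by 4.73 ± 0.09, while Cyba fell by 1.72 ± 0.07. Of 7 primary granule genes, 6 rose in NHD13 against WT (median 1.30), 6 fell in KO against NHD13 (median -0.61) and all 7 fell in AML against KO (median -2.23). Over all tested genes the shares risen and fallen were 25.3% and 28.7%, 20.6% and 20.3%, and 42.8% and 39.5% in these 3 steps. The counts of both granule lists and of the further late neutrophil genes stand against these. Whether the 2 granule lists differ was not tested. Neutrophil elastase (Elane) fell by 2.96 ± 0.08 in AML, to 2478 CPM, against 19333 CPM in KO. With the length correction these AML counts over KO stayed 9 risen of 10 and 7 fallen of 7, with medians of 2.24 and -1.68. With upper-quartile factors 7 of the 10 secondary granule genes rose there, as Hp and Fcnb no longer passed (adjusted p = 0.33 and 0.12).

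**Figure D4:**
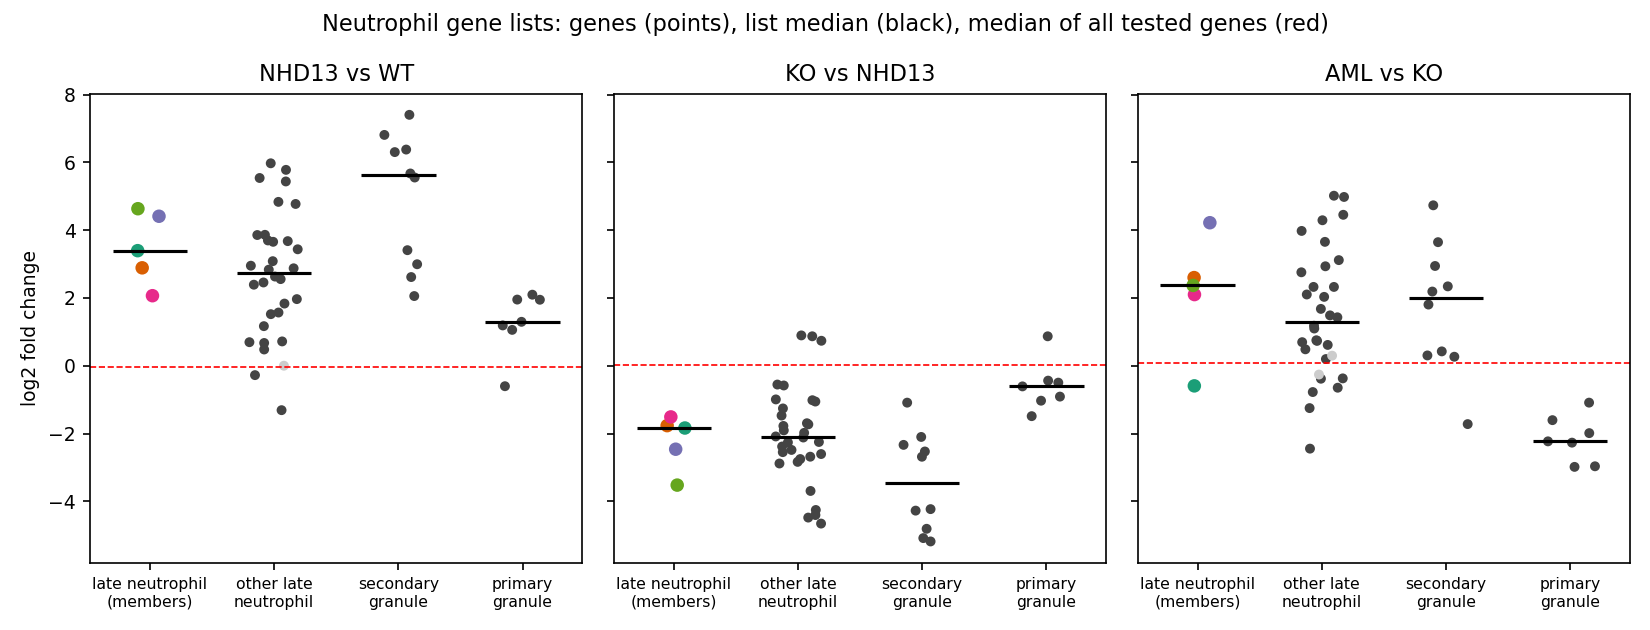
Log2 fold change of each gene (points; pale where the test was not passed) in the 5 genes, the further late neutrophil genes and the secondary and primary granule lists, the 5 genes in their own colours, with list medians (black) and the median of all tested genes (dashed red), for NHD13 over WT, KO over NHD13 and AML over KO. Secondary granule genes lie farthest from zero by their medians in NHD13 over WT (5.61) and KO over NHD13 (-3.45), and primary granule genes lie below zero in AML over KO (median -2.23). The Retnlg point below zero in AML over KO reverses to 0.37 with a gene length correction.

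The relatives of the 5 genes did not all follow them. Of 12 tested matrix metalloproteinases and inhibitors, 5 rose and 4 fell in NHD13 against WT, 2 rose and 3 fell in KO against NHD13, and 6 rose and 3 fell in AML against KO. Counts of this list and of the CXC, Ly6 and transcription factor lists that follow stand against the shares of all tested genes given above (25.3% risen and 28.7% fallen, 20.6% and 20.3%, and 42.8% and 39.5% in these 3 steps), and several lie near them. Mmp25, a membrane-anchored metalloproteinase of leukocytes, had the pattern of Mmp9, with 19.8 CPM in AML, 0.505 in KO, 4.72 in NHD13 and 0.110 in WT. It rose by 5.36 ± 0.35 in NHD13 against WT, fell by 3.12 ± 0.27 in KO against NHD13 and rose by 5.19 ± 0.23 in AML against KO. Reck, a membrane-anchored inhibitor of Mmp9, rose by 2.11 ± 0.15, fell by 2.07 ± 0.15 and rose by 1.92 ± 0.15 in the same comparisons. Timp3, a secreted inhibitor, had no count in AML. The inhibitor Timp1 had none in NHD13 and WT and was not tested.

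Among the ligand genes of Cxcr2, Cxcl2 averaged 63.8 CPM in NHD13 and 70.5 CPM in WT (log2 -0.14 ± 0.09, edgeR adjusted p = 0.201), and Cxcl1 and Cxcl3 were at or below 2.04 CPM in all groups. In AML Cxcl2 fell by 3.04 ± 0.11, to 8.11 CPM in AML, against 66.9 CPM in KO. Ppbp, another ligand, made by platelets, fell by 1.81 ± 0.35 in NHD13 against WT, rose by 3.80 ± 0.31 in KO against NHD13 and fell by 4.26 ± 0.31 in AML against KO. Megakaryocyte and platelet markers (8 of 8 detected) fell in 8, rose in 8 and fell in 7 of 8 over the same steps (sums of 56.2 to 57.5 CPM in AML, 410 to 418 in KO, 35.2 to 41.5 in NHD13 and 345 to 369.5 in WT). Cxcr4, the receptor that holds neutrophils in the marrow, rose by 0.98 ± 0.16 in NHD13 against WT and by 3.98 ± 0.15 in AML against KO. The arrestin gene Arrb2, whose product takes Cxcr2 off the surface, rose by 1.25 ± 0.15, fell by 1.14 ± 0.15 and rose by 2.43 ± 0.15 over the 3 steps. The other tested receptor genes, Cxcr3, Cxcr6 and the decoy Ackr1, were at or below 1.28 CPM in KO, NHD13 and WT, and Cxcr3 stood at 6.07 CPM in AML. Cxcr1, Cxcr5 and Ackr3 were too low to be tested. The kinase genes Grk2 and Grk6 and the arrestin genes Arrb1 and Arrb2 rose in NHD13 against WT and in AML against KO, Grk2 by 2.30 ± 0.07 in AML. In NHD13 against WT the call of Arrb1 (log2 0.45, adjusted p = 0.0233) was lost without WT replicate 1 (adjusted p = 0.064) and with upper-quartile factors (0.0965). Cxcl12, the ligand of Cxcr4, passed there too (adjusted p = 0.0491), but not without WT replicate 1 (adjusted p = 0.082) or with upper-quartile factors (0.0654). With limma on log2(FPKM + 1) Arrb1, Cxcl12 and Grk2 (adjusted p = 0.775, 0.116 and 0.581) were lost, while Cxcl1 and Cxcl2 passed as lower in NHD13 (adjusted p = 0.00915 and 0.000319). Of 13 genes tested in this list, 6 rose and 3 fell in NHD13 against WT, 1 rose and 4 fell in KO against NHD13, and 7 rose and 5 fell in AML against KO. In NHD13 against WT this became 4 risen and 4 fallen without WT replicate 1, where Cxcl2 passed as lower (adjusted p = 0.0471), 4 and 3 with upper-quartile factors and 3 and 5 with limma.

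The resistin relatives Retn, Retnla and Retnlb were too low to be tested, with a summed level of at most 0.535 CPM in AML, 0.262 in KO, 0.444 in NHD13 and 0.262 in WT. Of 7 tested Ly6 relatives, 1 rose and 5 fell in NHD13 against WT, 2 rose and 3 fell in KO against NHD13, and 1 rose and 3 fell in AML against KO. Ly6c2, carried by monocytes and by immature granulocytes, rose by 2.12 ± 0.10 in NHD13 against WT and fell by 0.96 ± 0.10 in KO against NHD13, as Ly6g did, but fell by 2.31 ± 0.10 in AML against KO, where Ly6g rose. Ly6a (Sca-1), a stem cell marker, fell by 4.22 ± 0.14 in NHD13 against WT, to 2.64 CPM in NHD13, against 49.0 CPM in WT.

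Transcription factors of granulocytes were mixed as a list (8 of 14 rose and 5 fell in NHD13 against WT, 6 rose and 8 fell in KO against NHD13, 8 rose and 4 fell in AML against KO). Cebpe, which drives the secondary granule programme, had the order NHD13, KO, WT of the late genes in HSPCs, with 195 CPM in AML, 53.7 CPM in KO, 199 CPM in NHD13 and 28.02 CPM in WT. It rose by 2.83 ± 0.08, fell by 1.89 ± 0.07 and rose by 1.86 ± 0.07 over the 3 steps. Gfi1, a repressor needed for neutrophil maturation, rose by 1.98 ± 0.12, fell by 1.47 ± 0.12 and rose by 2.34 ± 0.12. Cebpa, which opens the granulocyte lineage, stood at 228 CPM in AML, 8.98 in KO, 11.3 in NHD13 and 8.80 in WT, and rose by 4.66 ± 0.09 in AML against KO. The progenitor regulators Gata2 and Irf8 went against the late genes in these 2 HSPC steps, falling by 2.99 ± 0.18 and 2.34 ± 0.08 in NHD13 against WT and rising by 2.95 ± 0.18 and 2.11 ± 0.08 in KO against NHD13. In AML against KO Irf8 rose by 0.63 (edgeR adjusted p = 3.49e-07) and Gata2 changed by -0.005 (adjusted p = 0.978). With the length correction Irf8 stood at -0.12 there (adjusted p = 0.132) and Gata2 at -0.53 (adjusted p = 0.00334).

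Markers of other cells differed between these groups too. Their counts, and those of the megakaryocyte and platelet markers, also stand against the shares of all tested genes given above. Of 10 stem and progenitor markers, 9 fell in NHD13 against WT and 10 rose in KO against NHD13, with sums of 919 to 920.2 CPM in AML, 466 to 475 in KO, 149 to 157 in NHD13 and 844 to 876 in WT. Monocyte and macrophage markers (10 of 10 detected) summed to 895 to 936 CPM in AML, 531 to 605 in KO, 176 to 188 in NHD13 and 484 to 493 in WT. Gene by gene, 2 rose and 7 fell in NHD13 against WT (median log2 -1.32), 6 rose and 2 fell in KO against NHD13 (median 1.04), and 4 rose and 5 fell in AML against KO (median -0.30), so the higher AML sum was not shared by most of the list. Dendritic cell markers (9 of 9 detected in AML, KO and WT, 8 in NHD13, where Clec9a was at 0) summed to 1875 to 1913 CPM in AML, 72.1 to 75.1 in KO, 35.4 to 39.0 in NHD13 and 394 to 452 in WT. T and NK cell markers (9 of 10 detected in AML, where Ncr1 was at 0, and 10 elsewhere) summed to 173 to 184 CPM in AML, 1038 to 1088 in KO, 1830 to 2097 in NHD13 and 1055 to 1101 in WT. These sums hide a split, since of the 8 tested 2 rose and 5 fell in NHD13 against WT (median -2.39), none rose and 2 fell in KO against NHD13, and 4 rose and 1 fell in AML against KO. B cell markers (10 of 10 detected) summed to 28.5 to 29.99 CPM in AML, 57.4 to 62.7 in KO, 96.9 to 104 in NHD13 and 160 to 166 in WT. All 10 fell in KO against NHD13 (median -4.06), as the late neutrophil genes did. In NHD13 against WT 5 of the B cell markers fell and none rose. All 10 fell in KO against WT (median -4.65). The late neutrophil genes rose in both of those comparisons. Erythroid markers (10 of 10 detected) summed to 92.5 to 99.4 CPM in AML, 553 to 569 in KO, 515 to 547 in NHD13 and 333 to 407 in WT, and 7 rose and 1 fell in NHD13 against WT (median 0.94). In NHD13 the sums of the monocyte, dendritic cell, and stem and progenitor lists were the lowest of the 4 groups. The T and NK cell sum was the highest there, and the erythroid sum lay above WT. The part of these cells in the changes of the 5 genes was not tested.

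The nearest tested genes on either side were looked up to see whether whole stretches moved, a choice made after the data were seen. Dzip3, 49.7 kb from Retnlg, changed by -0.34 ± 0.11 in NHD13 against WT while Retnlg rose by 3.40 ± 0.07. Mmp27, 2.91 kb from Mmp8, stayed at or below 0.778 CPM in all groups and passed the test in none of the 3 steps. In NHD13 against WT it changed by 1.065 ± 0.458 (edgeR adjusted p = 0.0578), in the direction of Mmp8. There it passed as risen with RLE size factors (adjusted p = 0.0475) and with the length correction (adjusted p = 0.0358). In KO against NHD13 it changed by -0.38 ± 0.43 and in AML against KO by -0.04 ± 0.44. Rufy4, the nearest to Cxcr2 at 5764 bases, stood at 2.43 CPM in AML, 0.902 in KO, 2.18 in NHD13 and 1.86 in WT. It changed by 0.22 ± 0.25 in NHD13 against WT (edgeR adjusted p = 0.476), fell with Cxcr2 in KO against NHD13 by 1.23 ± 0.28 (adjusted p = 0.00136) and rose with it in AML against KO by 1.39 ± 0.27 (adjusted p = 1e-04). On the other side of Cxcr2, 75.2 kb away, Arpc2 changed by 0.54 ± 0.05 in NHD13 against WT, by -0.38 ± 0.05 in KO against NHD13 and by -1.06 ± 0.05 in AML against KO. Slc12a5, 4996 bases from Mmp9, was low in HSPCs and rose with Mmp9 in AML, to 6.56 CPM, against 0.286 CPM in KO (log2 4.49 ± 0.32, edgeR adjusted p = 1.87e-10). It fell by 2.48 ± 0.85 in NHD13 against WT (adjusted p = 0.0198) and rose by 2.86 ± 0.82 in KO against NHD13 (adjusted p = 0.00876), each time opposite to Mmp9. Ly6c2, the nearest to Ly6g at 43.2 kb, rose by 2.12 ± 0.10 in NHD13 against WT. It fell by 0.96 ± 0.10 in KO against NHD13, as Ly6g did, and by 2.31 ± 0.10 in AML against KO, where Ly6g rose. On the other sides of Retnlg, Mmp8, Mmp9 and Ly6g lay Trat1, Dcun1d5, Zfp335os and 9030619P08Rik. In NHD13 against WT they changed by -2.69 ± 0.61, 0.04 ± 0.06, -0.24 ± 0.16 and -3.70 ± 0.18.

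DNA methylation was read from tables in which the authors list differentially methylated regions between pairs of bisulfite libraries, each with the mean methylated fraction of both sides. Each group is 1 library and the tables give no coverage, so the regions carry no replicate test here. Within 5 kb of the gene spans, the authors' deposited table for NHD13 against WT lists 11 regions, and in all 11 the NHD13 fraction was the lower. Each of the 5 genes had at least 1. Regions lower in NHD13 make up 81.6% of that authors' deposited table, and 57.4% of protein-coding tested genes have one within 5 kb. Within 50 kb the authors' deposited table lists 33 regions, 30 lower and 3 higher in NHD13. Of the 3, the one near Retnlg lies 13636 bases from it at chr16:48858811-48858972, with 0.932 in NHD13 and 0.418 in WT in the authors' deposited table, a difference larger than in 98.98% of its regions.

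The start of Cxcr2 (chr1:74153994-74161246) was covered by a region at chr1:74153980-74154141, which reaches into the promoter window printed above, and its 10 listed CpG sites averaged 0.499 in NHD13 and 0.749 in WT in the authors' deposited table. Upstream, at chr1:74149204-74149337, the authors' deposited table gives 0.186 in NHD13 and 0.712 in WT, a difference larger than in 99.2% of its regions. At Retnlg (chr16:48872608-48874498), a region at chr16:48871590-48873004 spans the start, and with it the whole promoter window, with 0.679 in NHD13 and 0.973 in WT over 16 CpG sites in the authors' deposited table. At Mmp8 (chr9:7558429-7568486) the largest difference within 5 kb lay beyond the gene's end, at chr9:7569677-7571664, with 0.378 in NHD13 and 0.783 in WT in the authors' deposited table. This region begins 1191 bases past the end of Mmp8 and is 1988 bases long. It reaches into Mmp27, whose span begins 2910 bases past that end. Of the 3 regions counted at Mmp8, 1 lies inside its span, at chr9:7567492-7567763. Inside the span of Mmp9 (chr2:164940326-164955850), chr2:164946714-164947135 has 0.459 in NHD13 and 0.828 in WT in the authors' deposited table. Ly6g (chr15:75155261-75159128) has 1 region inside its span, of 4 CpG sites, with 0.640 in NHD13 and 0.956 in WT in the authors' deposited table.

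In KO against NHD13 the authors' deposited table lists 8 regions within 5 kb, all higher in KO, at Mmp8 (2), Mmp9 (2) and Cxcr2 (4). The 2 at Mmp8 lie past the gene's end, on the side of Mmp27. Retnlg and Ly6g, whose transcripts also fell, have no region listed within 5 kb in that authors' deposited table. A higher region is listed within 5 kb of 37.5% of protein-coding tested genes, and 77.6% of all regions are higher in KO, in the same authors' deposited table. At some places the same bases were listed in both tables: at the start of Cxcr2 the authors' deposited tables give 0.735 in KO, 0.499 in NHD13 and 0.749 in WT, and at the upstream site 0.627 in KO, 0.186 in NHD13 and 0.712 in WT. Downstream of Mmp8, at chr9:7572352-7572566, the authors' deposited tables give 0.450 in KO, 0.151 in NHD13 and 0.503 in WT. That place lies 3866 bases past the end of Mmp8. The span of the next gene, Mmp27, begins 2910 bases past that end, so the place lies beyond the nearer end of Mmp27. These 3 places were picked because both authors' deposited tables list them, so the NHD13 library lay below both others by that choice. The KO library lay near WT at them. Other regions lower in NHD13, such as those at the start of Retnlg and inside Ly6g, are not listed in KO against NHD13.

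Between AML and KO the genes parted. At Mmp8 (3 regions) and Cxcr2 (3 regions) all regions within 5 kb are lower in AML in the authors' deposited table, among them chr1:74154696-74155195 in Cxcr2 with 0.291 in AML and 0.802 in KO. At Mmp9, whose transcript rose most, the authors' deposited table lists 5 regions higher and 2 lower in AML. The longest of them, chr2:164949074-164950131 inside the gene span, holds 136 CpG sites and averaged 0.612 in AML and 0.263 in KO in the authors' deposited table. No region is listed within 5 kb of Retnlg or Ly6g in that authors' deposited table. Background shares there are 41.9% of genes with a lower region, 41.2% with a higher one, and 77.8% of regions lower and 22.2% higher in AML, by the authors' deposited table.

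**Figure D5:**
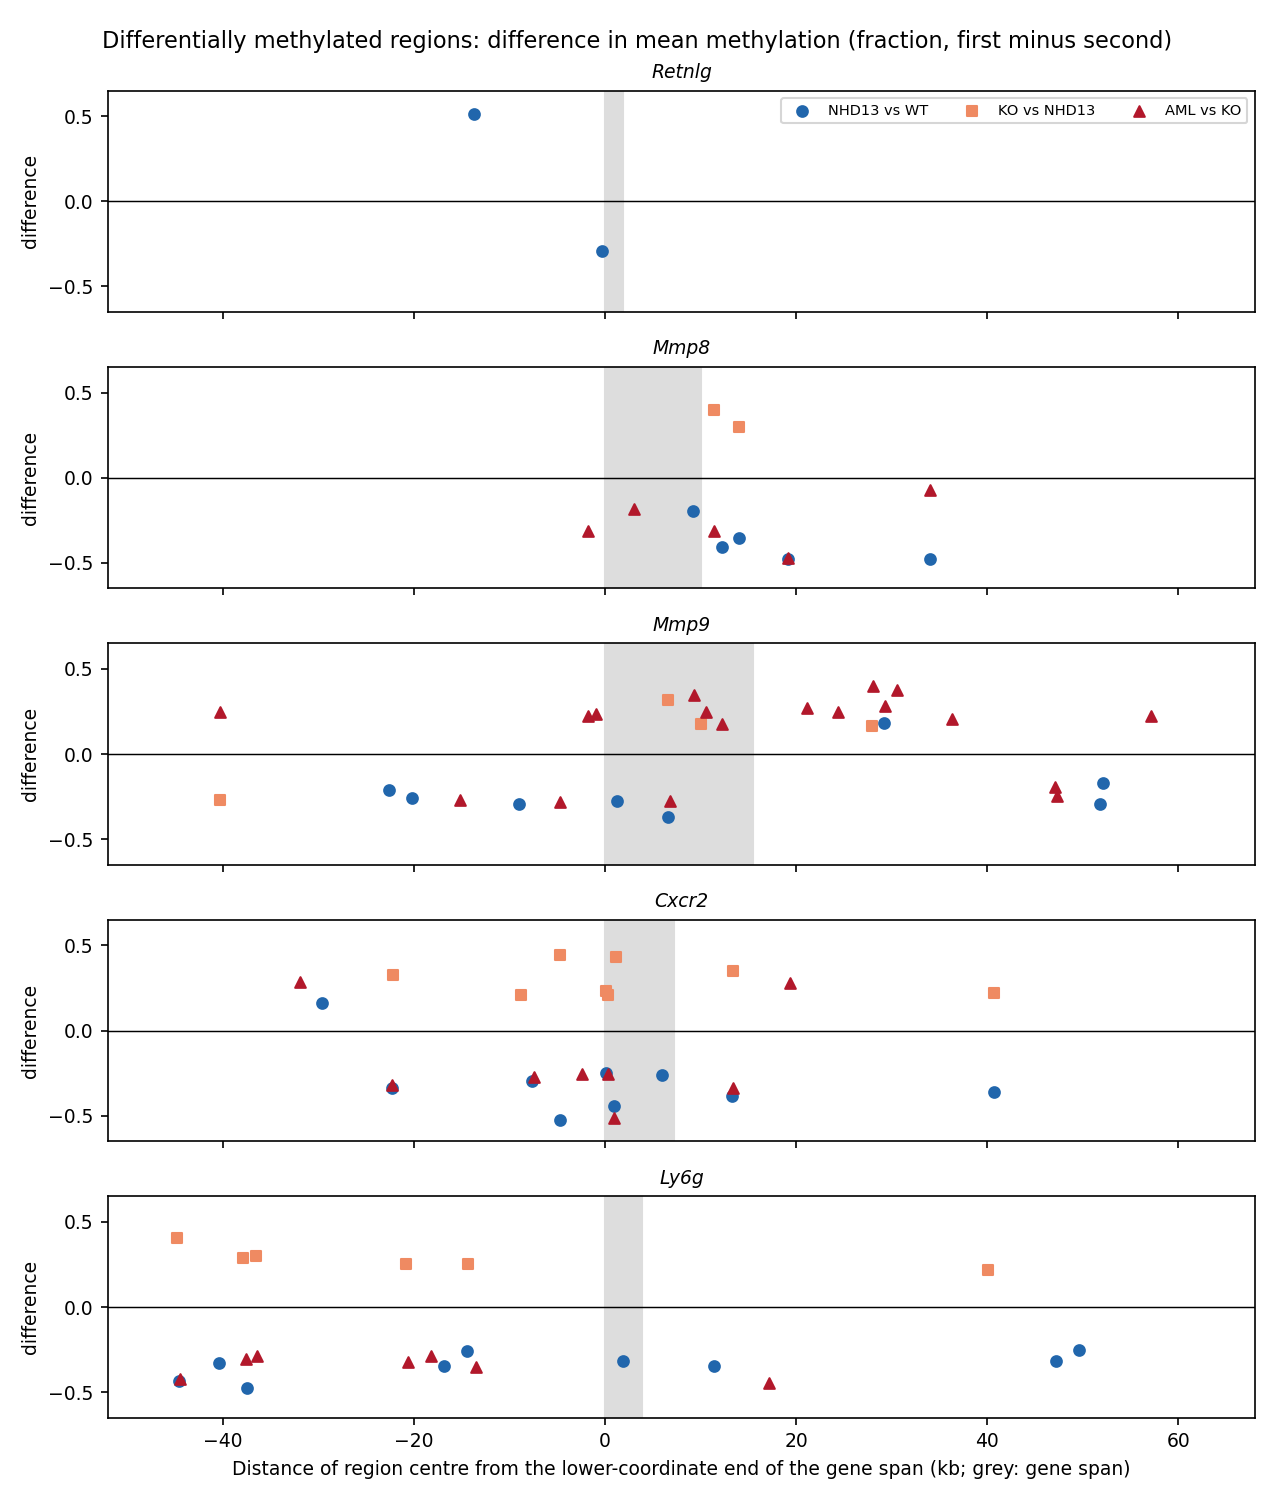
Difference in mean methylated fraction (first group minus second) of each region listed in the authors' deposited tables within 50 kb of the 5 genes, against the distance in kb of its centre from the lower-coordinate end of the gene span (grey). Within 5 kb the NHD13 minus WT points (11) all lie below zero and the KO minus NHD13 points (8) all above; AML minus KO points lie below zero at Mmp8 and Cxcr2 and on both sides at Mmp9.

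H3K36me3, which Setd2 lays down over the bodies of transcribed genes, was called in broad peaks in 1 library each of leukemic spleen cells. Of the 5 genes, Cxcr2 overlapped a peak in the NHD13 - AML library, at chr1:74158514-74160376, covering 25.7% of its span with the authors' fold enrichment of 4.71. In the NHD13/Setd2 KO - AML library, the one that matches the AML RNA, none of the 5 spans overlapped a peak. Peaks overlapped 47.3% of protein-coding tested genes in the NHD13/Setd2 KO - AML library and 74.7% in the NHD13 - AML library, which list 16902 and 30953 peaks. The nearest peak in the NHD13/Setd2 KO - AML library lay 4.54 kb from Retnlg and at least 31.1 kb from the other 4. Mmp9, the highest of the 4 risen genes in AML at 84.1 ± 0.6 FPKM (SD, n = 3), had its nearest peak 31.1 kb away in the NHD13/Setd2 KO - AML library and 30.6 kb away in the NHD13 - AML library. For the 2 ChIP libraries neither depth nor input was at hand, and a missing peak means only that none was called.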

How the data were processed

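Gene read counts were deposited by the authors in 1 raw table, and FPKM values in another; the deposited FPKM equals each count divided by gene length and library total, with no composition correction (largest relative difference 5.13e-15). Per the submitters' processing notes, HISAT2 2.0.5 and HTSeq 0.9.1 on mm10 were among the tools, as were MACS2 2.1.1.20160309 and Bismark 0.19.0. Peak lists deposited by the authors give a fold enrichment ratio, a score and the −log10 p and q of each peak, 1 list per library; its input was not at hand. In their region tables the authors deposited the mean methylation fraction of both sides of each comparison and a summed score; which caller made them is not given in the sources used. Which side is which was checked on identical regions shared by tables, and coordinates are 1-based.

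Counts were tested with edgeR 4.0.16 (R 4.3.3), with TMM factors, filterByExpr, 1 model over the 12 libraries (8 residual degrees of freedom), robust quasi-likelihood F tests and Benjamini-Hochberg adjustment at 0.05 over 16233 genes in each of 6 comparisons. CPM values use tested counts and TMM factors. The script was tested on simulated data. Alternatives were other factors, filters, DESeq2 1.42.0, limma 3.58.1 on log2(FPKM + 1) and log2(FPKM + 0.1), single libraries left out, and a gene length correction. Samples were grouped by their titles, and no column was left out. The genes and lists were chosen with earlier results of these data known. Named genes besides the 5 are the 3 most alike over the 12 libraries (at least 10 CPM in their highest group), and genes drawn from those of each list that rose or fell most (up to 3 each way, at least 1 CPM), with the resistin and CXC genes; neighbouring genes, marker genes and some list genes were named after their values were seen. Some genes that the rule names are not reported here. Gene spans and promoters came from RefSeq tables of GRCm38.p6 (4 of the 5 promoters matched). Use of strand in counting was not stated in the labels.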

Additional observations from a re-analysis of the deposited data

How the results depend on the processing

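Over 480 values of the 5 genes under alternatives, 479 kept direction and call. The exception was Retnlg in AML against KO, which reversed to 0.37 with the gene length correction, so that the count of fallen genes there became 0; the correction was chosen after seeing the data. Replicate numbers did not pair the libraries (correlations of same-numbered deviations between -0.381 and 0.535), and a replicate block changed no call of the 5 genes, with Retnlg at -0.59 in AML against KO and 3199 genes fallen in KO against NHD13. Leaving out 1 library kept Retnlg in AML against KO between -0.63 and -0.54, and Cxcr2 in KO against WT between 0.46 and 0.62. On the FPKM scale, with no composition correction, the median of all tested genes moved to -0.36 (NHD13 against WT), 0.17 (KO against NHD13), -0.18 (KO against WT) and 0.42 (AML against KO) at a pseudocount of 0.1. limma on FPKM plus 1 or 0.1 then called 1683 or 1702 genes risen and 8305 or 8422 fallen in NHD13 against WT, 1932 or 1999 fallen (5263 risen at 0.1) in KO against NHD13, and 1180 or 1203 risen and 5412 or 5371 fallen in KO against WT, with the 5 genes unchanged in call. Regions counted at the genes in NHD13 against WT, KO against NHD13 and AML against KO became 6, 4 and 4 with a difference of at least 0.3, and 33 (3 higher in NHD13), 20 (19 higher in KO) and 38 (15 higher in AML) within 50 kb. Counting only the span gave 5 and 7 in the last 2. With the spans extended by 5 kb, 1 peak, at Retnlg, was reached in the NHD13/Setd2 KO - AML library. Low counts limit Ly6g in WT.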
